A study of Homo sapiens with 6 samples.

Results

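The 10 genes described here encode secreted inflammatory cytokines and CXC chemokines that are driven by the transcription factor NF-kB: IL6, LIF and IL11, CXCL8, CXCL1, CXCL2 and CXCL3, IL1A and IL1B, and CSF2. They were chosen by name and are 10 of the 59481 gene symbols to which the transcripts on file could be summed. RNA was sequenced from paclitaxel (PTX)-resistant MDA-MB-231 cells, a human triple-negative breast cancer line, sorted by fluorescence on aldehyde dehydrogenase (ALDH) activity into breast cancer stem cells (BCSC, ALDH+, n = 3 libraries) and the remaining cells (non-BCSC, ALDH-, n = 3 libraries). Both groups carried the PTX resistance, no drug-naive cells were among these 6 libraries, and all libraries came from 1 line. Groups were taken from the sample titles, since the cell type label was identical for all 6, and nothing says that the 3 libraries of a group came from separate cultures, so p-values measure only the spread between these libraries. In such sorted samples fewer expressing cells and less RNA per cell cannot be told apart.

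NF-kB dimers are held in the cytoplasm by IkB proteins and move to the nucleus once IkB kinase has marked those inhibitors for degradation. There they bind kB motifs in promoters of cytokine and chemokine genes, several of which also carry sites for AP-1, while AU-rich elements in the 3′ untranslated region (3′ UTR) keep the resulting mRNAs short-lived. In breast cancer cells IL6, CXCL8 and their receptors are best known for autocrine loops and for the recruitment of myeloid cells.

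The libraries held 9898588 to 21215352 counts, and a count of 0 allows up to 3 counts, or 0.148 to 0.288 CPM (counts scaled to a common TMM-adjusted library total), for a single library, for counting error only. The labelled line was checked against fixed markers: the 5 mesenchymal markers summed to 6388 to 7494 CPM in BCSC and 4063 to 5475 CPM in non-BCSC, the 7 luminal markers to 49.4 to 61.9 and 124 to 134 CPM, and the 8 leukocyte markers to 0.848 to 1.81 and 18.3 to 29.3 CPM. The leukocyte gene PTPRC was lower in BCSC, with 4, 6 and 19 counts against 160, 256 and 216 in non-BCSC. The leukocyte genes LYZ (0 in BCSC and 0, 9 and 0 counts in non-BCSC) and CD14 (14, 6 and 0 against 0, 4 and 18) did not separate the groups. Genes that breast cells should not use were counted more in non-BCSC: 406 olfactory receptor genes held 0.993, 1.05 and 3.01 counts per kb in the BCSC libraries and 7.82, 9.40 and 14.4 counts per kb in the non-BCSC libraries. Members are set against this level below.

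To find out whether these genes differed between the sorted fractions, all 20423 genes that passed edgeR's expression filter were tested together, and a gene was called at a Benjamini-Hochberg adjusted p under 0.05 and a fold above 2. Of the 10 members, 8 passed the filter. CXCL8, CSF2 and LIF were called higher in BCSC, which is 3 of 8 (37.5%), where 8.89% of all genes tested were called higher. None was called lower, where 11.4% of all genes were, and no tested member had a negative log2 fold change or an unadjusted p under 0.05 in that direction. DESeq2 also called 3 higher and 0 lower. IL6, CXCL2, CXCL3, IL1A and IL1B did not pass, and CXCL1 and IL11 were too low to be tested. The 3 BCSC values lay above all 3 non-BCSC values in 4 of the 8, as they did in 24.2% of all genes tested. The median log2 fold change of the 8 was 0.92, beside -0.05 for all genes tested. CSF2 passed the filter through its BCSC libraries alone, so these counts describe the members and are no test of the list.

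**Figure D1:**
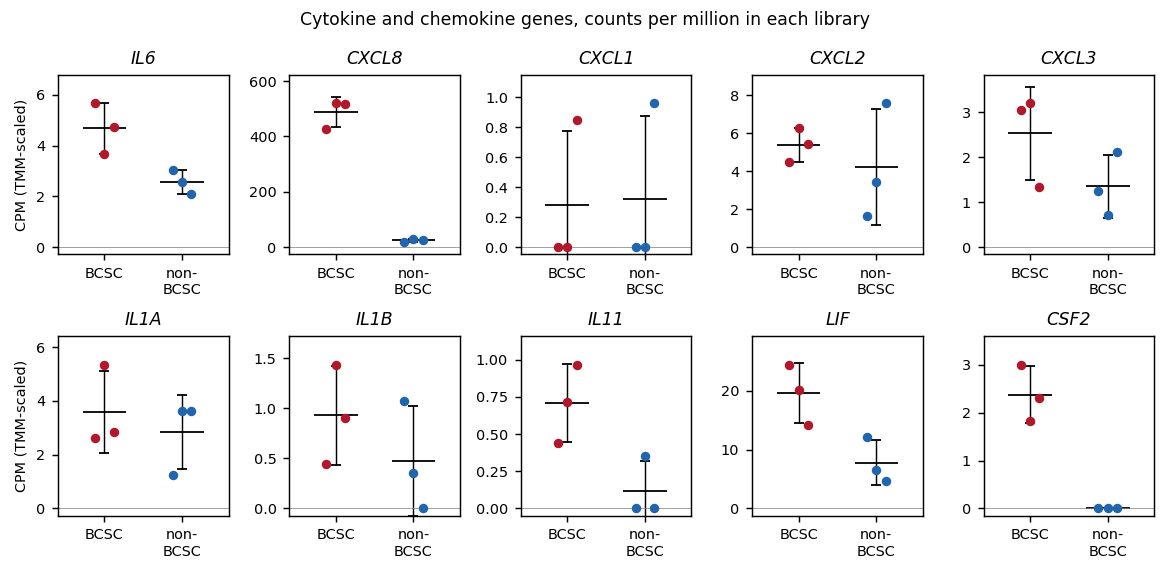
CPM of each member gene in every library, with 3 BCSC and 3 non-BCSC points per panel, a horizontal bar at the group mean and whiskers of 1 SD, and a separate vertical scale for each gene. CXCL8 stands at 426 to 520 CPM in BCSC and 18.8 to 29.7 CPM in non-BCSC, CSF2 is at 0 in all 3 non-BCSC libraries, and the groups overlap for CXCL1, CXCL2, CXCL3, IL1A and IL1B.

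The neutrophil chemokine CXCL8 (interleukin-8, chr4:74606236-74609433, plus strand, GRCh37) dominated the set. It had 8642, 7967 and 8579 counts in BCSC 1, 2 and 3, against 228, 336 and 253 counts in non-BCSC 1, 2 and 3. These corresponded to 426, 520 and 519 CPM and to 18.8, 29.7 and 24.3 CPM. The lowest BCSC library thus stood far above the highest non-BCSC library. Its mean was 488 ± 54.1 CPM in BCSC and 24.2 ± 5.43 CPM in non-BCSC (SD, n = 3), a log2 fold change of 4.33 (SE 0.18, adjusted p = 3.05e-06) or 20.1-fold. Its fold change ranked 9 among 12562 well-counted genes, those that averaged 50 counts or more and had over 3 counts in some library of both groups. By level per length, in CPM per kb, CXCL8 was gene 88 of 20423 in BCSC and gene 4151 in non-BCSC. In the 6 fits that each left out 1 library the log2 fold change ran from 4.23 to 4.55 and the call was kept in 6 of 6. CXCL8 transcripts have 33.0% GC, beside a median of 44.8% for the genes tested, and with a correction for GC content and length the log2 fold change was 6.97 (adjusted p = 6.26e-06).

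CXCL8 also set the sum of the members. It took 90.6% to 93.9% of all member counts in BCSC and 48.0% to 62.8% in non-BCSC. Summed over the 10 members, BCSC libraries held 470 to 562 CPM and non-BCSC libraries 39.2 to 47.3 CPM. The 9 other members summed to 44.2, 42.6 and 33.6 CPM in BCSC and to 20.4, 17.6 and 21.1 CPM in non-BCSC, so that the groups did not overlap without CXCL8 either.

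The promoter of CXCL8 is shown because it carries both kinds of site named above. It runs from 250 bases before the transcription start to 50 after it (RefSeq, GRCh38.p14, chr4:73740319-73740618, plus strand), with the match to TGANTCA (AP-1) and the match to GGANTTTCC (kB) in capitals.
CXCL8 promoter: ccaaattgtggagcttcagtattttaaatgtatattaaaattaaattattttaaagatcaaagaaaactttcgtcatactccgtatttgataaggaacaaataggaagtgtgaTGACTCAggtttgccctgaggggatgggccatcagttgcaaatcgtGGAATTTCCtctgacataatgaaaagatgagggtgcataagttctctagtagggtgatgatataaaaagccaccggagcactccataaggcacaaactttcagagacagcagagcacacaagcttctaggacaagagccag

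The kB match in CXCL8 began at base -91 and the AP-1 match at base -137. Of the 9 members in the promoter table, 5 held GGANTTTCC on either strand, at base -91 in CXCL8, -78 in CXCL1 and CXCL3, -77 in CXCL2 and -72 in IL6, where 1.64% of 35116 promoters of the same length held it. TGANTCA was in 3 of the 9, CXCL8, IL11 and IL1A, and in 7.71% of all promoters. The 2 motifs do not overlap in these windows. The 5 kB sites are shown side by side with 15 bases on each side, in the direction of transcription and with the match in capitals (GRCh38.p14).
CXCL8 promoter site, chr4:73740463-73740501, plus strand: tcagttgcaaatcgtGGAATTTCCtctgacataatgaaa
IL6 promoter site, chr7:22727113-22727151, plus strand: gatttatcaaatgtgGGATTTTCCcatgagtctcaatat
CXCL1 promoter site, chr4:73869300-73869338, plus strand: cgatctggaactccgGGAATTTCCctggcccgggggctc
CXCL2 promoter site, chr4:74099249-74099287, minus strand: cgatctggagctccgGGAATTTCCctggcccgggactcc
CXCL3 promoter site, chr4:74038744-74038782, minus strand: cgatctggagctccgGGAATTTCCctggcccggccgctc

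Among the 5 genes with this site, CXCL8 was called higher, while IL6, CXCL2 and CXCL3 were not called and CXCL1 was not tested. CSF2 was called higher and held neither pattern in this window. Other forms of the kB motif were not searched, so a kB site of another form in CSF2 would have been missed. The members were listed as driven by NF-kB, so their share of kB matches is no test. The matches are descriptions of sequence and say nothing of binding in these cells.

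CSF2 encodes granulocyte-macrophage colony-stimulating factor, a growth factor of myeloid cells (chr5:131409482-131411863, plus strand, GRCh37). It had 61, 28 and 38 counts in BCSC, against 0, 0 and 0 in non-BCSC, or 3.005, 1.83 and 2.30 CPM against 0. It was therefore detected in every BCSC library and in no non-BCSC library. Against a floor of 3 counts per non-BCSC library, CSF2 was at least 8.91-fold higher in BCSC (adjusted p = 0.00942). It was called in 6 of 6 fits without 1 library, with adjusted p between 0.0211 and 0.0474. The only CSF2 transcript on file was not called when single transcripts were fitted (adjusted p = 0.0704). The requirement of at least 10 counts in every library removed the gene from the test.

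CSF2 mRNA is a textbook AU-rich transcript, and the 3′ UTRs of the members were searched for the pentamer ATTTA. All 10 members held it, as did 67.9% of 19085 coding genes. The nonamer TTATTTATT was in 8 of the 10 and in 8.48% of coding genes. CSF2 had 8 pentamers in 318 bases (25.2 per kb), CXCL2 had 10 in 716 (14.0 per kb), IL6 had 6 in 425 (14.1 per kb), CXCL8 had 9 in 1252 (7.19 per kb) and LIF had 7 in 3198 (2.19 per kb), where the median over coding genes was 1.53 per kb. Each UTR is that of the transcript which the annotation marks as canonical. For IL6 this is IL6-201, which had 0 counts in all 6 libraries. IL6-209 and IL6-208, which held the IL6 counts in BCSC, end at bases 22771313 and 22770821, before the IL6 stretch shown. The 30 bases richest in pentamers are shown for CSF2, CXCL8, IL6 and LIF, with the pentamers in capitals (GRCh37).
CSF2 3′ UTR, chr5:131411765-131411794, plus strand: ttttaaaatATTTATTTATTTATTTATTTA
CXCL8 3′ UTR, chr4:74608825-74608854, plus strand: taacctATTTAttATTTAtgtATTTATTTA
IL6 3′ UTR, chr7:22771316-22771345, plus strand: ttttaattatttttaATTTAttaatATTTA
LIF 3′ UTR, chr22:30636511-30636540, minus strand: ATTTAttcaatgtcatATTTAaaatATTTA

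CSF2 had the highest density and was called, CXCL2 and IL6 came next and were not called, and CXCL8 and LIF had lower densities and were called. The density of IL6 is that of IL6-201, to which no counts were assigned.

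LIF, IL6 and IL11 signal through receptors that share the subunit gp130. LIF, a factor that keeps mouse embryonic stem cells undifferentiated in culture (chr22:30636442-30642748, minus strand, GRCh37), had 497, 309 and 236 counts in BCSC, against 147, 74 and 49 in non-BCSC. These were 24.5, 20.2 and 14.3 CPM and 12.1, 6.54 and 4.70 CPM. The groups did not overlap, although BCSC 3 and non-BCSC 1 lay close together. The mean was 19.6 ± 5.12 CPM in BCSC and 7.79 ± 3.87 CPM in non-BCSC (SD, n = 3), a log2 fold change of 1.33 (SE 0.39, adjusted p = 0.0292).

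The call of LIF depended on single libraries and on the processing. It was lost without BCSC 1 (1.14, adjusted p = 0.110), without BCSC 2 (1.34, adjusted p = 0.0850), without non-BCSC 2 (1.26, adjusted p = 0.0905) and without non-BCSC 3 (1.09, adjusted p = 0.0781). LIF transcripts have 57.1% GC, and with the GC and length correction the log2 fold change was 0.41 (adjusted p = 0.354). After the olfactory receptor level had been subtracted it was 1.87 (adjusted p = 0.259). The overlapping antisense genes LIF-AS1 and LIF-AS2 had at most 16 counts in any library.

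IL6, the acute-phase cytokine (chr7:22765503-22771621, plus strand, GRCh37), had 115, 56 and 78 counts in BCSC, against 37, 29 and 22 in non-BCSC. These were 5.66, 3.65 and 4.72 CPM and 3.05, 2.56 and 2.11 CPM. Every BCSC library was above every non-BCSC library, but the difference did not pass the test, with a log2 fold change of 0.86 (SE 0.54, adjusted p = 0.248). The non-BCSC level of IL6 was close to that of genes that should be silent: 1.30 times the olfactory receptor level in counts per kb, against 23.1 times in BCSC. These multiples have different bases, since the olfactory receptor level averaged 10.5 counts per kb in non-BCSC and 1.68 in BCSC. IL6 itself had 13.7 and 38.8 counts per kb. With that level subtracted the log2 fold change was 2.17 (adjusted p = 0.233). STEAP1B overlaps IL6 on the opposite strand over 1730 bases and had 0, 16 and 15 counts in BCSC, against 15, 42 and 61 in non-BCSC, and whether the counting used strand is not stated.

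IL11, a cytokine best known for effects on platelets, bone and fibrosis (chr19:55875750-55881831, minus strand, GRCh37), was near the floor, with 9, 11 and 16 counts in BCSC, against 0, 4 and 0 in non-BCSC. Its BCSC values of 0.443, 0.718 and 0.968 CPM all lay above the non-BCSC values of 0, 0.353 and 0 CPM. The gene did not pass the expression filter, and in the fit without a filter it was not called (log2 fold change 2.58, SE 2.17, adjusted p = 0.399).

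The CXCR2 ligands CXCL1, CXCL2 and CXCL3, which attract neutrophils, were not called, and their difference from CXCL8 was not tested. CXCL2 (chr4:74962757-74964913, minus strand, GRCh37) had 91, 96 and 90 counts in BCSC, against 20, 39 and 79 in non-BCSC, or 4.48, 6.26 and 5.44 CPM and 1.65, 3.45 and 7.57 CPM. Its highest value was in non-BCSC 3, so the groups overlapped (log2 fold change 0.36, SE 0.59, adjusted p = 0.675). CXCL3 (chr4:74902306-74904524, minus strand) had 62, 49 and 22 counts in BCSC, against 15, 8 and 22 in non-BCSC, or 3.05, 3.20 and 1.33 CPM and 1.24, 0.707 and 2.11 CPM. These groups overlapped as well, since BCSC 3 fell below non-BCSC 3 (0.90, SE 0.81, adjusted p = 0.424). CXCL1 (chr4:74735110-74737025, plus strand) had 14 counts in BCSC 3, 10 in non-BCSC 3 and 0 in the 4 other libraries, and it was not tested.

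The counts of these 3 genes are uncertain as single values, because their sequences are closely similar. Their coding sequences were 90.7% to 94.4% identical to each other and their whole transcripts 81.7% to 90.9%, with longest shared runs of 55 to 97 bases. CXCL8 was 56.3% to 60.6% identical to them in coding sequence and 60.8% to 62.7% over the transcript, with no shared run above 18 bases. How reads that fit more than 1 copy were counted is not stated.

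The 4 chemokine members lie in 1 cluster of 9 CXC genes that spans 359 kb of chromosome 4 (GRCh37). By level in CPM per kb, CXCL8 at one end of the cluster stood at 299 ± 33.1 in BCSC and 14.8 ± 3.33 in non-BCSC (SD, n = 3), and CXCL2 at the other end at 5.13 ± 0.847 and 4.01 ± 2.89. CXCL6, the next gene after CXCL8 and another neutrophil attractant, went the other way: it had 0, 0 and 2 counts in BCSC, against 59, 39 and 43 in non-BCSC. Its pooled counts gave a ratio of 109 in favour of non-BCSC (95% exact conditional interval 29.5 to 905, counting error only; edgeR adjusted p = 0.00565). The non-BCSC level of CXCL6 was 3.09 times the olfactory receptor level per kb, and with that level subtracted CXCL6 was still called lower (adjusted p = 0.0119). CXCL5 had 0, 4 and 19 counts in BCSC, against 30, 24 and 51 in non-BCSC. It was not called (log2 fold change -2.74, edgeR adjusted p = 0.127), although DESeq2 called it lower. PPBP had 4, 0 and 5 counts in BCSC, against 0, 21 and 25 in non-BCSC, and was not tested. PF4V1 had 0 counts in all libraries, and PF4 had at most 2 in any library.

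**Figure D2:**
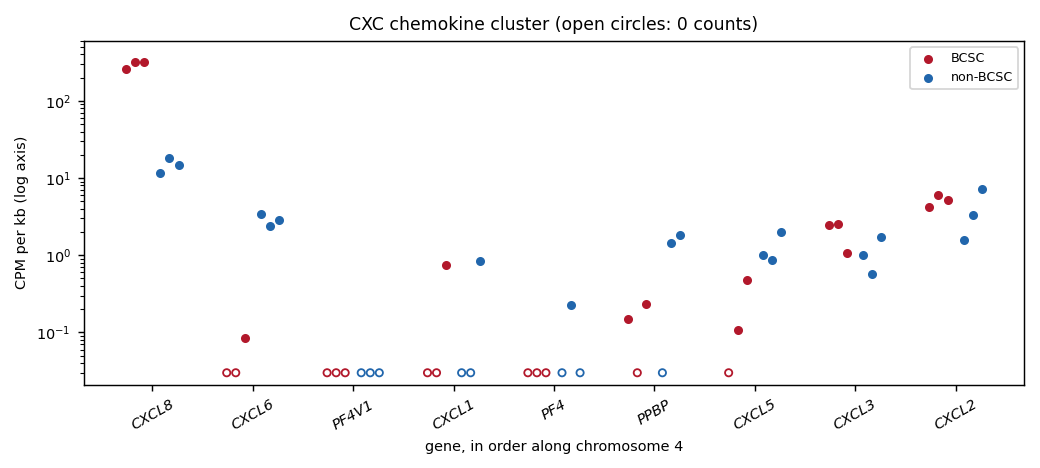
Level of the 9 genes of the chromosome 4 CXC cluster in each library, in CPM per kb of transcript on a log axis, in their order along the chromosome (left to right) with open circles for libraries at 0 counts. CXCL8 is the gene with a high level in the 3 BCSC libraries, and its neighbour CXCL6 holds 59, 39 and 43 counts in non-BCSC and at most 2 in a BCSC library.

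The interleukin-1 genes IL1A and IL1B, early triggers of NF-kB signalling, lie next to each other on chromosome 2. IL1A (chr2:113531502-113542070, minus strand, GRCh37) had 53, 82 and 47 counts in BCSC, against 15, 41 and 38 in non-BCSC, or 2.61, 5.35 and 2.84 CPM and 1.24, 3.62 and 3.64 CPM. Only BCSC 2 lay above all non-BCSC libraries, and the log2 fold change of 0.34 (SE 0.66, adjusted p = 0.720) became -0.02 without that library. With the GC and length correction IL1A, whose transcript has 38.7% GC, was called higher, at 2.40 (adjusted p = 0.0159). In that fit 18.8% of all genes were called higher and the calls among the members were CXCL8, CSF2 and IL1A, with LIF lost. IL1B (chr2:113587328-113594393, minus strand) had 9, 22 and 15 counts in BCSC, against 13, 4 and 0 in non-BCSC. At 0.443, 1.44 and 0.907 CPM against 1.07, 0.353 and 0 CPM its groups overlapped (0.94, SE 1.30, adjusted p = 0.612).

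With the olfactory receptor level subtracted, 2 of the 7 members still tested were called higher, CXCL8 and CSF2, where 10.8% of all genes were. In the non-BCSC libraries the count per kb was 15.8 times the olfactory receptor level for CXCL8, 4.15 times for CXCL2, 2.21 times for LIF, 1.47 times for IL1A and 1.14 times for CXCL3. It was below that level for IL1B, CXCL1, IL11 and CSF2. In BCSC the 8 members tested stood between 6.48 and 3055 times that level. The level itself was lower in BCSC, so these multiples are not comparable between the groups.

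**Figure D3:**
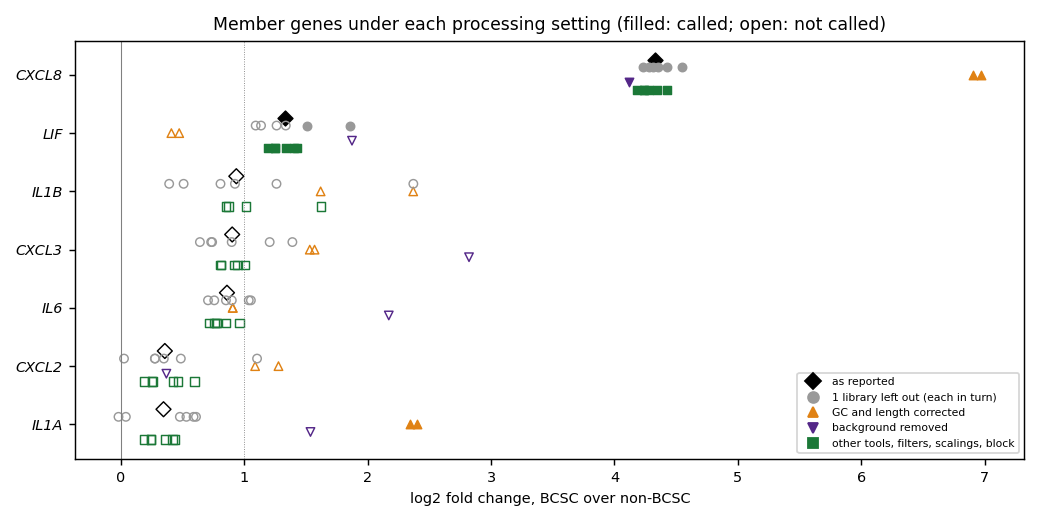
Log2 fold change (BCSC over non-BCSC) of the 7 tested members with counts in both groups, under the fit reported and each alternative, with filled symbols where the gene was called and open symbols where it was not, and a dotted line at a fold of 2. CXCL8 is filled at every setting, between 4.12 and 6.97, LIF loses its call at several settings, and IL1A gains one with the GC and length correction alone or together with a replicate block.

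The counts were deposited per transcript, and the 10 members had 39 transcripts on file, of which 12 could be tested. The protein-coding transcript CXCL8-201 had 7881, 7621 and 8238 counts in BCSC, against 58, 262 and 200 in non-BCSC. It was called higher (log2 fold change 4.96, SE 0.65, adjusted p = 0.0481), and was the only 1 of the 12, where 0.593% of 46176 transcripts were called higher. It took 91.2%, 95.7% and 96.0% of CXCL8 counts in BCSC, but 25.4%, 78.0% and 79.1% in non-BCSC. In non-BCSC 1 most of the rest, 128 counts or 56.1%, was assigned to CXCL8-204, annotated as subject to nonsense-mediated decay.

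Counts of IL6 were spread over transcripts in a different way in each group. The transcript that the annotation marks as canonical, IL6-201, had 0 counts in all 6 libraries. The coding transcript IL6-209 had 76, 36 and 40 counts in BCSC and 0 in each non-BCSC library, at least 10.6-fold higher against 3 counts per library, but with an adjusted p of 0.0688. IL6-204 showed the reverse, with 0 in BCSC and 15, 5 and 4 counts in non-BCSC, and was not tested. The retained-intron transcript IL6-208 had counts in both, 39, 20 and 38 against 22, 24 and 18, and did not pass the test (adjusted p = 0.982). In CXCL3, the transcript CXCL3-204, with no coding sequence defined, had 39, 18 and 3 counts in BCSC but none in non-BCSC, while the coding CXCL3-201 had 19, 27 and 16 against 15, 8 and 22. How reads were assigned among transcripts of 1 gene is not stated, and these splits were not tested.

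**Figure D4:**
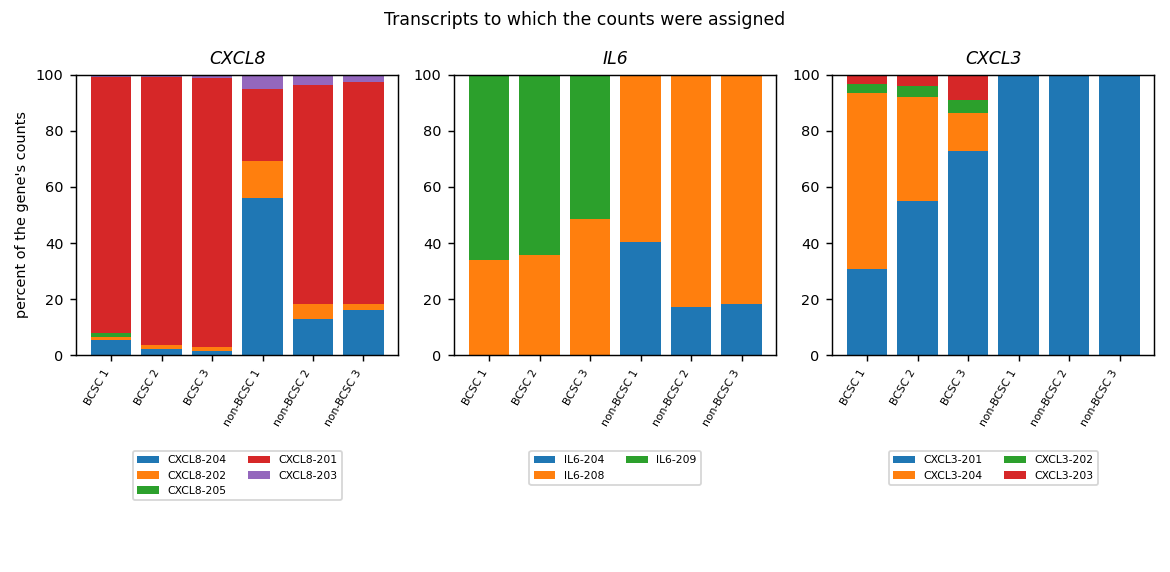
Percent of the counts of CXCL8, IL6 and CXCL3 assigned to each of their transcripts in the 6 libraries, as stacked bars that add to 100%. CXCL8-201 holds over 90% in each BCSC library and 25.4% in non-BCSC 1, IL6-209 appears in the BCSC libraries, and CXCL3-201 holds all CXCL3 counts in non-BCSC.

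Around the members, 79 genes in 7 fixed lists were described, of which 60 were tested, 17 (28.3%) were called higher and 4 (6.67%) lower in BCSC, where 8.89% and 11.4% of all genes tested were. Each list below is to be read against those shares, or against the 18.8% called higher with the GC and length correction. The median log2 fold change of the 60 was 0.64. Among those called, IKBKG, CXCL6, CXCL9 and IL33 passed the filter only through the group where they were high. The counts therefore describe the lists and are no test of them. The receptors of the members had 1 of 7 tested genes called higher, and 4 of 7 with the GC and length correction. IL6R, the IL-6-binding receptor chain, stood at 39.0 ± 5.59 CPM in BCSC and 13.9 ± 2.72 CPM in non-BCSC (SD, n = 3; log2 fold change 1.49, SE 0.23, adjusted p = 0.00233). IL6ST, which encodes the shared subunit gp130, was at 862 ± 92.5 and 488 ± 31.3 CPM (0.82, SE 0.11, adjusted p = 0.00102) and did not reach a fold of 2, but was called at 1.85 (adjusted p = 0.000329) with that correction. The interleukin-1 receptor genes IL1R1 and IL1RAP were called under that correction, with or without the block, and at no other setting, at 1.32 (adjusted p = 0.0296) and 1.14 (adjusted p = 0.00130). The receptors of CXCL8 were barely counted: CXCR1 had 0 counts in all libraries, and CXCR2 had 7 in BCSC and 37 in non-BCSC in all.

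The NF-kB subunits, IkB kinases and inhibitors were all tested, and 7 of 15 were called higher and 0 lower. Across the alternatives 5 to 8 were called higher, with 5 when the background was removed or BCSC 1 left out and 6 with the replicate block. All 15 had a positive log2 fold change, with a median of 1.31, but 11 of 15 did with the GC and length correction and 13 of 14 with the background removed. Of the 15, 10 passed an adjusted p of 0.05 at any fold, as did 15.4% of all genes in that direction. TNFAIP3, the feedback inhibitor A20, was at 43.2, 42.7 and 36.5 CPM in BCSC and 10.3, 9.72 and 7.09 CPM in non-BCSC (2.17, SE 0.23, adjusted p = 0.000456). The inhibitor gene NFKBIB was at 13.7 ± 2.07 and 2.29 ± 0.397 CPM (2.58, SE 0.37, adjusted p = 0.00167), at 1.06 (adjusted p = 0.0347) with the GC and length correction and at 4.16 (adjusted p = 0.0279) with the background removed. RELA, which encodes the p65 subunit, was at 49.6 ± 12.7 and 17.1 ± 4.53 CPM (1.53, SE 0.26, adjusted p = 0.00359), but at 0.37 (adjusted p = 0.223) with the GC and length correction. NFKBIZ, an atypical nuclear IkB protein needed for IL-6 induction, was at 32.3 ± 4.92 and 13.02 ± 1.95 CPM (1.31, SE 0.23, adjusted p = 0.00406). In the fit reported, the list thus held higher levels both of a subunit that activates transcription and of genes that restrain the pathway. The call of that subunit, RELA, was lost with the GC and length correction. Each of the other genes called also lost its call at some setting. NFKB2, which encodes the p100 precursor (2.50, adjusted p = 0.00890), was called in 6 of 6 fits without 1 library but not with the background removed (adjusted p = 0.0746). BCL3, an atypical nuclear IkB protein (1.39, adjusted p = 0.0249), was called in 3 of 6 such fits, lost without BCSC 1 (adjusted p = 0.0799), BCSC 2 (adjusted p = 0.0899) or non-BCSC 2 (adjusted p = 0.0541), and stood at -0.50 (adjusted p = 0.350) with the GC and length correction. IKBKG, the regulatory subunit of IkB kinase, had 46, 17 and 15 counts in BCSC and 0 in each non-BCSC library, so that it passed the filter through BCSC alone and the counts of this list are no test of it. It was at least 5.35-fold higher against 3 counts per library (adjusted p = 0.0178), but was not called without BCSC 1 (adjusted p = 0.109) or BCSC 2 (adjusted p = 0.0675) or with the block (adjusted p = 0.0541), and its counts are uncertain because a near-identical pseudogene copy exists.

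Other NF-kB targets had 4 of 8 tested genes called higher and 0 lower (DESeq2 called 5 higher and 1 lower, and 6 of the 8 had an unadjusted p under 0.05 in either direction, for which no share of all genes is given). SOD2, the mitochondrial superoxide dismutase, was at 358 ± 33.7 CPM in BCSC and 138 ± 3.46 CPM in non-BCSC (1.38, SE 0.10, adjusted p = 8.11e-05). BIRC3, an inhibitor of apoptosis, was at 76.6 ± 17.6 and 27.3 ± 2.11 CPM (1.49, SE 0.20, adjusted p = 0.00113), and the monocyte chemokine CCL2 at 57.4 ± 14.2 and 20.7 ± 6.85 CPM (1.47, SE 0.28, adjusted p = 0.00528). TNFAIP2 was at 84.5 ± 24.6 and 34.6 ± 13.8 CPM (1.29, SE 0.29, adjusted p = 0.0114), but at -0.12 (adjusted p = 0.716) with the GC and length correction, and was not called without non-BCSC 2 (1.24, adjusted p = 0.0506). TNF and CSF3 had 0 counts in all libraries. PTGS2, the inducible cyclooxygenase, was at 0.681 ± 0.696 and 4.89 ± 0.835 CPM and did not pass the test (-2.84, SE 1.12, adjusted p = 0.0799), although it was called lower by DESeq2 (adjusted p = 0.0157), with no filter (adjusted p = 0.0255) and without BCSC 3 (adjusted p = 0.0493). In non-BCSC it stood at 1.19 times the olfactory receptor level per kb.

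The other CXC chemokines split, with 2 of 7 tested genes called higher and 3 lower and a median of -2.27, which was 1.02 over the 4 genes left by the requirement of 10 counts in each library, and 0.57 over the 5 tested with the background removed. CXCL6 and CXCL9 passed the filter through their non-BCSC libraries alone, so the lower calls and the median are no test of this list. CXCL16, a membrane-bound chemokine for CXCR6, was at 34.6 ± 6.95 CPM in BCSC and 8.25 ± 1.25 CPM in non-BCSC (2.07, SE 0.25, adjusted p = 0.000828). CXCL10, an interferon-induced T cell attractant, was at 19.9 ± 2.42 and 5.76 ± 0.677 CPM (1.79, SE 0.28, adjusted p = 0.00234). CXCL14, a chemokine of epithelia, was the best counted of those that were lower: it had 41.0, 36.9 and 37.3 CPM in BCSC and 190, 202 and 163 CPM in non-BCSC (-2.27, SE 0.13, adjusted p = 2.03e-05). Its non-BCSC level was 106 times the olfactory receptor level per kb. CXCL9, at 0.484 ± 0.157 and 3.62 ± 1.17 CPM (-2.88, SE 0.80, adjusted p = 0.0242), stood at 1.42 times that level in non-BCSC, and was not called without BCSC 1 (adjusted p = 0.0831), BCSC 2 (adjusted p = 0.0918) or non-BCSC 1 (adjusted p = 0.0807).

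Of the JAK kinases, STAT factors and their inhibitors, which carry the signal of IL-6, LIF, IL-11 and GM-CSF receptors, 3 of 8 tested genes were called higher and 0 lower (DESeq2 called 3 higher and 0 lower, 1 of 8 was called higher with the GC and length correction and 2 of 7 with the background removed, and no gene of the list had an unadjusted p under 0.05 with a negative fold). STAT5B was at 32.7 ± 4.18 CPM in BCSC and 12.01 ± 1.86 CPM in non-BCSC (1.44, SE 0.23, adjusted p = 0.00254). The STAT3 inhibitor gene PIAS3 was at 56.1 ± 4.70 and 26.1 ± 6.92 CPM (1.10, SE 0.22, adjusted p = 0.00647), close to the fold of 2 that a call needs. It fell under that fold without non-BCSC 2 (0.95), with at least 10 counts in every library (0.95), with the background removed (0.93) and with the GC and length correction (0.66). TYK2 was at 43.2, 19.5 and 19.0 CPM in BCSC and 8.09, 11.6 and 10.9 CPM in non-BCSC (1.42, SE 0.36, adjusted p = 0.0170). The call of TYK2 was lost without BCSC 1 (0.92, adjusted p = 0.0758), and with the GC and length correction its log2 fold change was -0.07 (adjusted p = 0.886). STAT3 itself was at 299 ± 35.2 and 210 ± 13.9 CPM (0.51, SE 0.11, adjusted p = 0.0108), under a fold of 2.

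Of the interleukin-1 antagonist, further family members and inflammasome genes, 0 of 5 tested were called higher and 1 lower (DESeq2 called 0 higher and 1 lower, and CASP1 had an unadjusted p under 0.05 with a positive fold). With the GC and length correction 2 were called higher, the inflammatory caspase gene CASP1 (2.29, adjusted p = 0.000516) and IL18 (1.54, adjusted p = 0.00119). The alarmin IL33 had 0 counts in each BCSC library and 20, 27 and 36 counts in the non-BCSC libraries, which makes it at least 14.3-fold lower in BCSC against 3 counts per library (adjusted p = 0.00781). Its non-BCSC level was 1.48 times the olfactory receptor level per kb, and it could not be tested once that level was subtracted. IL33 passed the filter through its non-BCSC libraries alone, so its call is no test of the list. Of the 10 regulators of AU-rich mRNA stability, 0 were called in either direction by edgeR and by DESeq2. Of them, 9 had an unadjusted p under 0.05 in either direction, with HNRNPD, TIA1 and TIAL1 lower in BCSC. No share of all genes is given for that p. An adjusted p of 0.05 at a positive fold of any size was passed by 4, as by 15.4% of all genes tested. The GC and length correction called 3 of the 10 higher, ELAVL1, RC3H1 and TIA1, at 1.02 to 1.21. ZFP36, which encodes the mRNA-destabilising protein tristetraprolin, was called higher with the replicate block (1.70, adjusted p = 0.0160), with no filter (1.47, adjusted p = 0.00124) and without non-BCSC 1 (2.38, adjusted p = 0.00800), and KHSRP without BCSC 3 (1.004, adjusted p = 0.0157) or non-BCSC 1 (1.11, adjusted p = 0.0182). The most abundant of them, HNRNPD (AUF1), was at 665 ± 84.7 CPM in BCSC and 809 ± 12.1 CPM in non-BCSC (-0.28, SE 0.10, adjusted p = 0.0668), and its sign was positive, at 0.77 (adjusted p = 0.0181), with the GC and length correction.

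**Figure D5:**
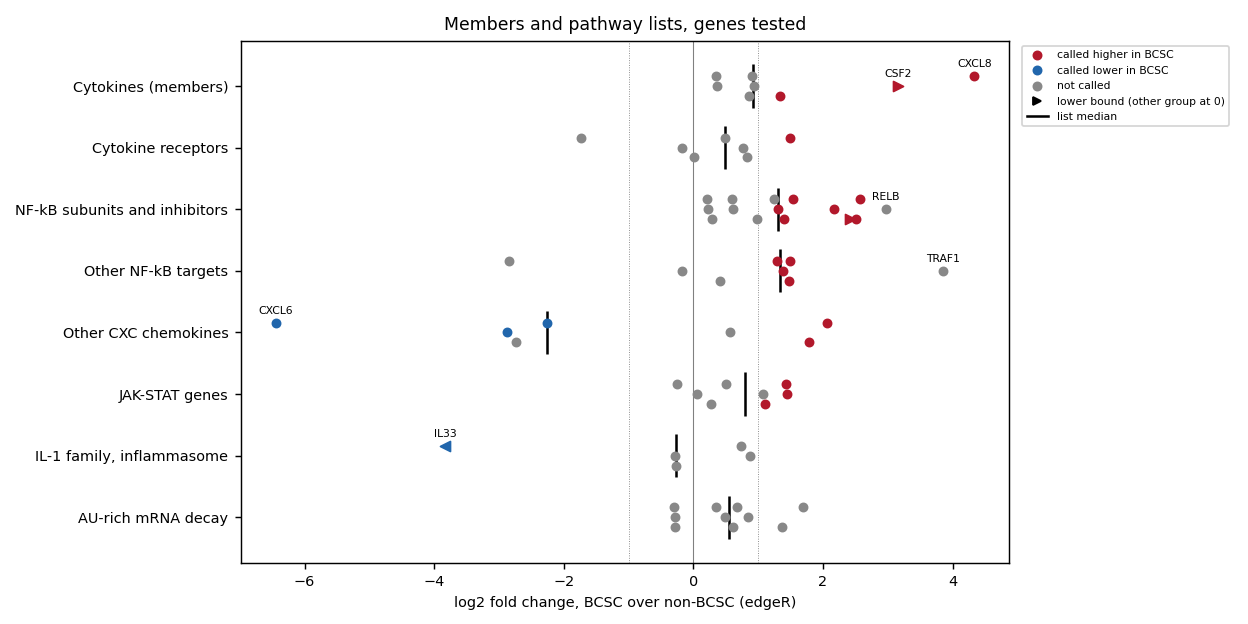
Log2 fold change (BCSC over non-BCSC) of every tested gene of the members and of the 7 lists, coloured by call, with triangles at the lower bound for genes at 0 in the other group, a black bar at each list's median, and dotted lines at a fold of 2 in both directions. All 15 NF-kB subunits and inhibitors lie right of 0 with a median of 1.31 (11 of 15 with the GC and length correction, which is not drawn), and the other CXC chemokines lie on both sides with a median of -2.27 (positive with at least 10 counts or the background removed, also not drawn).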

How the data were processed

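Long non-coding RNA sequencing libraries from 6 sorted samples were analysed. Per the labels, total RNA was primed at random and the second cDNA strand, marked with dUTP, was degraded, which keeps strand. The authors aligned reads with HISAT2, and the submitters' processing notes also name featureCounts, DESeq2 and hg38, whereas the study's methods give hg19. The authors deposited a table of estimated counts for each transcript, as whole numbers with no normalization or filter, and the file gives no gene names or positions. The step that assigned reads to transcripts, its use of strand and the annotation release are not given in the sources used here.

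Of 252618 transcripts, 249787 (98.9%) matched GENCODE release 44 on GRCh37 by identifier and 2827 did not, and 4 with assembler-made identifiers were left out. Counts were summed to 59481 gene symbols. Gene and UTR coordinates are GRCh37 and promoters (RefSeq) are GRCh38.p14, and no position came from the counts file. The promoter table had 9 of the 10 members, without LIF. The sums were compared by the robust quasi-likelihood test of edgeR 4.0.16 (in R 4.3.3) after TMM scaling and filterByExpr, without covariates, with the Benjamini-Hochberg adjustment over all genes tested. The common biological coefficient of variation was 0.450. CPM use TMM library sizes, a positive log2 fold change means a higher value in BCSC, and ± marks the SD of 3 libraries. Level per length divides CPM by the mean transcript length of the gene, weighted by the counts of each transcript. Where all 3 libraries of a group were at 0, the fold is a lower bound against 3 counts in each.

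The members, lists and tests were chosen with earlier results of these data known. All members are named. From each list the genes called are named, up to 4 in each direction by smallest p, or the most abundant gene where none was called. Names chosen after their values were known are IL6ST, IL1R1, IL1RAP, STAT3, PTGS2, TNF, CSF3, CXCR1, CXCR2, CASP1, IL18, ELAVL1, RC3H1, TIA1, TIAL1, ZFP36, KHSRP, NFKB2, BCL3, IKBKG, PTPRC, LYZ, CD14 and the other genes of the CXC cluster. The alternatives comprised DESeq2 1.42.0, RLE size factors, a filter of at least 10 counts in every library or none, the replicate number as a block, a loess correction for GC content and length (span 0.3, per library) alone and with the block, subtraction of each library's olfactory receptor counts per kb, thinning to the smallest library, each library left out, no minimum fold, and transcripts as deposited. The fit was tested on simulated data before use. Within a group, pairs of libraries differed by more than counting error (chi-square per degree of freedom 15.0 to 39.1). Same-numbered libraries deviated together with correlations of 0.182, 0.0162 and 0.220, and differently numbered ones with -0.201 to 0.0526. The numbers were not taken as pairs, since the libraries share only a number, and the replicate block is given as an alternative.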

Additional observations from a re-analysis of the deposited data

How the results depend on the processing

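Cytokine genes called higher numbered 3 as reported, 2 with at least 10 counts in every library or with the background removed, 1 with the transcripts as deposited, and 3 under the other tools, scalings and filters, while 0 were called lower under each alternative. Without 1 library 2 to 3 were called higher and 0 lower. Of the 79 listed pathway genes, 17 were called higher and 4 lower as reported, 26 and 4 with no minimum fold, 24 and 3 with the GC and length correction, 18 and 6 by DESeq2, 15 and 1 with at least 10 counts, 15 and 2 with the background removed, and 14 to 20 and 3 to 6 without 1 library. With the replicate block 3 members and 18 and 4 pathway genes were called, and over all genes 2012 were higher and 2351 lower, against 1816 and 2326 without it. The libraries share only a number, and among the named genes the block lost the call of IKBKG (adjusted p = 0.0541) and added that of ZFP36 (1.70). Over all genes and the 15 alternative fits, 4.07% to 18.8% were called higher and 4.85% to 17.3% lower. Calls were 43.8% higher as reported, 69.2% with the GC and length correction, 72.9% with that and the block, 66.5% with the background removed, 33.6% by DESeq2, 54.0% with at least 10 counts, and 37.6% to 57.6% without 1 library. Against these, the median of all genes moved by 0.32, 0.39 and 0.18 (log2) in the first 3, by -0.93 with no filter and by up to -0.22 without 1 library (without BCSC 3), so the fold changes under them are relative to that shift. The sign changed for IL1A without BCSC 2 (-0.0198, with -0.0198 to 0.61 over the fits without 1 library), for TNFAIP2 (-0.12, and -0.0892 with the block), for TYK2 (-0.0689 and -0.0382), BCL3 (-0.50 and -0.47), KHSRP (-0.31 and -0.30), HNRNPD (0.77 and 0.75), TIA1 (1.21 and 1.19) and IL18 (1.54 and 1.58) with the GC and length correction, for IL18 without non-BCSC 2 (0.00965, with -0.49 to 0.00965 over the fits without 1 library), and for IL1RAP with RLE size factors or DESeq2 (-0.0786 and -0.0787), at least 10 counts (-0.14), the background removed (-0.26), and without BCSC 2 (-0.0210) or BCSC 3 (-0.0780, with -0.0780 to 0.16 over the fits without 1 library). The cause was not tested. IL1A was called with that correction, at 2.40 and 2.34 with the block, and LIF (0.41 and 0.47), RELA (0.37), CXCL9 (-1.49), PIAS3 (0.66) and BCL3 were not. No named gene changed its call with RLE size factors, and with DESeq2 only PTGS2 (-2.95) and CXCL5 (-2.86) did, both called lower. Depth limits IL11, CXCL1, IL1B and the non-BCSC level of CSF2, where a difference was not detectable or is only bounded.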
